A study of Mus musculus with 48 samples.

Results

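The numbered zinc finger protein genes are the mouse genes whose symbol is Zfp followed by a number and nothing else, with Zfp36, which codes for an mRNA-binding protein of another kind, left out. They were taken from 2 tables of capped RNA 5′ ends in mouse T cells. Tag clusters, which are short stretches of transcription start sites on 1 strand, were summed per symbol, and a gene was kept where its mean over all libraries of a table was at least 2 RPM (reads per M, here tags per M tags of the library, with M for 1e6). This left 184 of 10098 genes in the DO11.10 hybridoma and 198 of 10219 genes in primary CD4+ T cells. Of these, 172 were members in both tables, 12 in the hybridoma alone and 26 in CD4+ cells alone, which makes 210 in all. The threshold took out 7 of 191 hybridoma symbols and 8 of 206 CD4+ symbols. Just outside it were Zfp82 at 1.70, Zfp846 at 1.71 and Zfp61 at 1.98 RPM in the hybridoma, and just inside it Zfp40 at 2.11, Zfp318 at 2.20 and Zfp677 at 2.27 RPM. In CD4+ cells Zfp169 at 1.82, Zfp940 at 1.90 and Zfp90 at 1.95 RPM were just outside, and Zfp784 at 2.01, Zfp821 at 2.03 and Zfp945 at 2.10 RPM just inside. Every deposited cluster reached at least 3 RPM in some library, so a gene that stayed lower in all of them is not analysed here.

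DO11.10 is a mouse T cell hybridoma, labelled BALB/c x AKR/J, whose receptor recognises an ovalbumin peptide (pOVA). The hybridoma libraries were made after 0, 1, 10, 100, 1000 or 10000 nM pOVA, and the CD4+ libraries, from BALB/cCrSlc mice, after 0, 10, 100, 1000 or 10000 ng/ml of 2C11, an antibody to CD3. Each dose was given without and with engagement of PD-1, an inhibitory receptor of T cells. There were 2 libraries per group and 3 at the dose of 10000, which makes 26 hybridoma and 22 CD4+ libraries. The labels do not give the route of PD-1 engagement, the time of stimulation, the age of the mice or the source of the replicates, which may or may not be separate cultures or mice, so p-values measure the spread between these libraries, which may be technical.

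Most of these genes code for C2H2 zinc finger proteins, in which fingers in a row read the bases of DNA. A large subfamily also carries a KRAB domain, which recruits TRIM28 and with it histone and DNA methylation to the bound sites, many of them in transposable elements. The KRAB genes arose by repeated duplication and lie in clusters of related neighbours. The others include activators, partners of chromatin complexes and proteins that bind RNA or work in ribosome assembly.

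Depth ran from 7.79 to 19.7 M tags per hybridoma library and from 4.42 to 22.8 M per CD4+ library. T cell markers were present in every library, with 8 of 9 in the hybridoma table summing to 743 to 1151 RPM and 9 of 9 in the CD4+ table summing to 3070 to 4578 RPM. Of the CD8 T cell markers 0 of 2 were in the hybridoma table and 1 of 2 in the CD4+ table, and of the erythroid markers 0 of 2 in both. B cell markers, 6 of 7 in each table, summed to 268 RPM in the unengaged hybridoma library of dose 0 with number 2 and to 237 RPM in its engaged counterpart. In the other 24 hybridoma libraries they summed to 16.7 to 59.7 RPM, and in CD4+ cells to 66.9 to 165 RPM. Those 2 hybridoma libraries stand apart, and 1 of them is a control of every hybridoma stimulation value below.

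A KRAB A box was searched for in the annotated proteins of the members and counted where at least 9 of 14 conserved positions matched. By this cut 104 members were placed with KRAB and 105 without, and Zfp783 had no coding sequence in the annotation used. Zfp202, with 8 matched positions, was just under the cut, and Zfp192, Zfp292, Zfp407, Zfp507, Zfp598, Zfp800 and Zfp956 had 7. A diverged KRAB domain can thus be missed, and "without KRAB" below means only under this cut. The median number of C2H2 fingers was 11 with KRAB and 7 without, and the largest numbers were 23 and 30. By the position of the largest cluster in mm9, 56 of the 210 members lay on chromosome 7, 24 on chromosome 17 and 18 on chromosome 13, and 107 had another member within 200 kb.

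The family was of modest abundance. The median member stood at 9.72 RPM in the hybridoma and 9.53 RPM in CD4+ cells, where the other genes of at least the same mean had medians of 24.3 and 23.5 RPM. KRAB members were lower, with medians of 6.58 and 7.91 RPM, than members without KRAB, with 14.4 and 13.7 RPM. Together the members held 0.36 to 0.46% of the tags with a gene symbol in each library of both systems. A share of 16.3% of members in the hybridoma and 19.2% in CD4+ cells had 2 or more clusters, against 21.6% and 21.2% of the other genes. CAGE counts 5′ ends, 1 per transcript, so levels of different genes can be set side by side without a correction for length.

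The 6 most abundant members of each table were mostly genes without KRAB. In the hybridoma Zfp706 led with a mean of 449 RPM, followed by Zfp106, an RNA-binding protein, at 152, Zfp91, a ubiquitin ligase, at 114, Zfp593, a ribosome assembly factor, at 112, Zfp622, also of ribosome assembly, at 83.7 and Zfp740 at 67.9 RPM. In CD4+ cells the order was Zfp706 at 258, Zfp593 at 83.7, Zfp622 at 74.4, the KRAB gene Zfp52 at 71.1, Zfp259 (now Zpr1) at 61.7 and Zfp106 at 60.9 RPM. Zfp706, Zfp593, Zfp622 and Zfp106 were in both lists.

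Stimulation at 10000 changed 49 of the 184 hybridoma members, counted by limma at an adjusted p under 0.05 over all 10094 genes tested. Higher were 5 members (2.72%), where 8.09% of all genes tested rose, and lower were 44 (23.9%), where 20.8% of all genes fell. The share of members that rose was thus under that of all genes, and the share that fell was close to it. The members' median log2 difference was -0.24 and that of all genes -0.18 (log2 of RPM + 1). With quantile normalization, which gives every library the same distribution of values, the median of all genes was -0.04, that of the members 0.00, and 20 members were higher (10.9%) and 26 lower (14.1%), where 12.9% and 14.2% of all genes were. The excess of lower over higher calls, in members and in all genes, was thus smaller under that scaling. Fewer cells of a type and less RNA per cell cannot be told apart in these bulk libraries.

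The hybridoma calls rest on few control libraries. Without the dose 0 library of number 2, the one with the high B cell markers, 19 members were lower (9.75% of all genes), and without the library of number 3 at 10000 nM 26 were (12.5% of all genes). With the B cell markers as a covariate 8 members were higher and 35 lower (8.72% and 18% of all genes). The B cell markers themselves had a median of -1.06 in this comparison, with 0 of 6 called in either direction, and their part in the result was not tested. The calls came with dose. At 1 nM no member passed and 0% of all genes did in either direction, and at 10 nM no member passed, where 0.0297% of all genes rose and 0% fell. At 10 nM 21 members were lower at an unadjusted p under 0.05 in limma. The share of all genes at that unadjusted p is not given here, so this count does not set the members apart. At 100 nM 0 members were higher and 7 lower (2.84% and 3.19% of all genes), and at 1000 nM 5 were higher and 51 lower (7.14% and 23.4%). With PD-1 engaged, the step from 0 to 10000 nM gave 4 higher and 44 lower members (7.05% and 19.3% of all genes).

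Each of the 5 hybridoma members that rose had all 3 libraries at 10000 nM above both at dose 0. The groups were apart in every other called member too, the 44 lower here and the 24 higher and 98 lower in CD4+ cells. A lack of overlap is thus no support beyond the call, and its share over all genes is not given here. Zfp295, a BTB zinc finger gene now called Zbtb21 (largest cluster at chr16:98183766-98183796, minus strand, mm9), was at 10.0 and 14.7 RPM at dose 0 and at 24.7, 20.4 and 20.4 RPM at 10000 nM. Its log2 difference was 0.79 ± 0.16 (SE, adjusted p = 0.00108). The KRAB gene Zfp426 (chr9:20297146-20297195, minus strand) was at 9.46 and 11.09 RPM at dose 0 and at 16.9, 17.4 and 19.7 RPM at 10000 nM, a log2 difference of 0.75 ± 0.12 (adjusted p = 0.000185). Both rose by a similar amount and started from a similar level. Zfp330, which codes for a nucleolar protein, rose by 0.50 ± 0.12 (adjusted p = 0.00606), the KRAB gene Zfp655 by 0.45 ± 0.10 (adjusted p = 0.00334) and Zfp593 by 0.42 ± 0.08 (adjusted p = 0.000994). The Zfp330 call was lost without the dose 0 library of number 1 (adjusted p = 0.068) and the Zfp655 call without that of number 2 (adjusted p = 0.0591).

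The promoters of 4 of these 5 members, all except Zfp593, are shown with that of Zfp592, a partner of chromatin reader complexes that was lower in both systems, so that the letters of the motifs described next can be seen in place. Each is the RefSeq sequence of build GRCm38.p6 from 250 bases before to 50 bases after the start, 5′ to 3′ on the gene's strand, with motif matches in capitals. The motifs searched on both strands were CCGGAAG (ETS), TGACGTCA (cyclic AMP response element, CRE), GCGNGGGCG (EGR), TGANTCA (AP-1), CACGTG (E-box) and AAGATGGCG (YY1), and matches of different motifs were allowed to overlap.
Zfp295 (Zbtb21), chr16:97962573-97962872, minus strand, E-box and CRE: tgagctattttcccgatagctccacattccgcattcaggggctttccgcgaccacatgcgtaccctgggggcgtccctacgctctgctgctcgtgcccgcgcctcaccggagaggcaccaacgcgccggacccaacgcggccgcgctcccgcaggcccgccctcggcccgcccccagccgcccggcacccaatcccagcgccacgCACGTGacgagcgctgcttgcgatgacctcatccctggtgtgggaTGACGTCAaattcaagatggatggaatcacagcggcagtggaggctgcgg
Zfp426, chr9:20492697-20492996, minus strand, CRE and ETS: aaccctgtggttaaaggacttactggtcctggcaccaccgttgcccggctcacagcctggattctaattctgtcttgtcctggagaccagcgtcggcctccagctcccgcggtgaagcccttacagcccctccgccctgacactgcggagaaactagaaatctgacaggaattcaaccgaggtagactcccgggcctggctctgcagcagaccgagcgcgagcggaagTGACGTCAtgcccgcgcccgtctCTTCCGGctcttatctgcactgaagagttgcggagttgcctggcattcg
Zfp655, chr5:145231492-145231791, plus strand, ETS: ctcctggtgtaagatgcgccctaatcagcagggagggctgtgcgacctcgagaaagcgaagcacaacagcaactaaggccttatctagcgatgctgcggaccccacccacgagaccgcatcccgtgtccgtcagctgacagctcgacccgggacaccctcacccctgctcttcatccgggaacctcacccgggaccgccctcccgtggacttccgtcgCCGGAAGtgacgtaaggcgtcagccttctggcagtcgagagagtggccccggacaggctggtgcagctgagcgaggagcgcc
Zfp330, chr8:82774096-82774395, minus strand, ETS: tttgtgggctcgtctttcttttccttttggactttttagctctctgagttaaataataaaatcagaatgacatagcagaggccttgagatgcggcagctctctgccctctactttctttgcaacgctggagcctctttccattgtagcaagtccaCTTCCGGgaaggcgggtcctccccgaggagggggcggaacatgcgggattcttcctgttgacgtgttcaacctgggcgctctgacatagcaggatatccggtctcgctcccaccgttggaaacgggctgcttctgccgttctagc
Zfp592, chr7:80993434-80993733, plus strand, EGR: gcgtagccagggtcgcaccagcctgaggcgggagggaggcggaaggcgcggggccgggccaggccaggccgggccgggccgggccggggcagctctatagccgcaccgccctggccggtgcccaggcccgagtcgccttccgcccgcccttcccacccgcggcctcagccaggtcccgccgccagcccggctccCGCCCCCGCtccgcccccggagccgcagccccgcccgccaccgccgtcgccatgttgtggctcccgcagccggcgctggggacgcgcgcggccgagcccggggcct

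Of the 4 promoters of risen hybridoma members, 3 held the ETS letters and 2 the CRE letters, and none held the EGR letters. A RefSeq promoter was matched for 177 of the 210 members, and of these 22.6% held the ETS letters, 5.1% the CRE letters and 8.5% the EGR letters. The shares over all 27025 genes with a promoter were 9.9% for ETS, 2.0% for CRE, 6.3% for EGR, 9.0% for AP-1, 8.1% for E-box and 1.6% for YY1, and over 6491 other genes of at least 2 RPM in the hybridoma 23.8%, 4.2%, 12.5%, 5.3%, 12.9% and 4.4%. Beside those of other genes measured in these cells, the members' shares for ETS and CRE were close, and the members' E-box share was 6.8%. Among the 35 matched promoters of hybridoma members that fell, 10 held the EGR letters (28.6%), and among the 83 of CD4+ members that fell 6 did (7.2%). These are descriptions of letters in a window, with no test.

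The hybridoma members that fell furthest were mostly genes without KRAB. The largest difference belonged to the KRAB gene Zfp942, which was at 12.7 and 20.8 RPM at dose 0 and at 4.70, 0 and 0 RPM at 10000 nM (log2 difference -3.27 ± 1.13, adjusted p = 0.0367). Its libraries at the doses between ranged from 0 to 9.91 RPM without engagement, with no order by dose, and its call was lost with edgeR (adjusted p = 0.162), with DESeq2 (adjusted p = 0.421) and without either dose 0 library. Zfp821 was at 6.86 and 6.55 RPM at dose 0 and at 1.81, 1.23 and 1.93 RPM at 10000 nM, which is -1.55 ± 0.20 (adjusted p = 1.6e-05). Zfp217, a partner of CtBP corepressors (chr2:169956663-169956721, minus strand), was at 17.9 and 18.9 RPM at dose 0 and at 9.40, 6.21 and 7.06 RPM at 10000 nM, which is -1.20 ± 0.20 (adjusted p = 0.00022). In both genes the 2 groups lay well apart. Zfp395 (-1.38 ± 0.29), Zfp710 (-1.27 ± 0.22), Zfp704 (-1.18 ± 0.29), Zfp3 (-1.15 ± 0.20) and the KRAB gene Zfp69 (-1.0 ± 0.20) fell as well. A fall of at least 2-fold on this scale was seen in 7 of the 44, and the share of all genes with such a fall is not given here.

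In CD4+ cells stimulation moved more of the family, and mostly downward. At 10000 ng/ml of 2C11, 24 of the 198 members were higher (12.1%), where 27.5% of all 10217 genes tested rose, and 98 were lower (49.5%), where 40.1% of all genes fell. The members' median log2 difference was -0.41 and that of all genes -0.15. With quantile normalization the median of all genes was -0.03 and that of the members -0.19, with 36 higher and 83 lower calls (32.1% and 34.3% of all genes), so members fell more often than genes at large under both scalings. A fall of at least 2-fold was seen in 31 of the 98. How many of all genes fell that far is not given here, so the size of the falls is not shown to set members apart.

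A larger share of the KRAB genes was called lower. Of 97 KRAB members 55 were lower (56.7%) and 6 higher, with a median of -0.54, and of 101 members without KRAB 43 were lower (42.6%) and 18 higher, with a median of -0.27. Among members with a mean of at least 10 RPM, 19 of 32 with KRAB and 23 of 61 without were lower, where 40.2% of all genes of that level were. Quantile normalization gave 45 lower KRAB members, with a median of -0.32, and 38 lower members without KRAB, with a median of -0.09. Leaving out each library in turn left 44 to 55 lower KRAB members and 36 to 41 without KRAB (33.6% to 39.6% of all genes). In the hybridoma the split was the other way in counts, with 16 of 88 KRAB members lower (18.2%, median -0.23) and 28 of 95 without KRAB (29.5%, median -0.27), and with quantile normalization the medians there were 0.03 and -0.08. The difference between the KRAB groups was described and not tested.

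**Figure D1:**
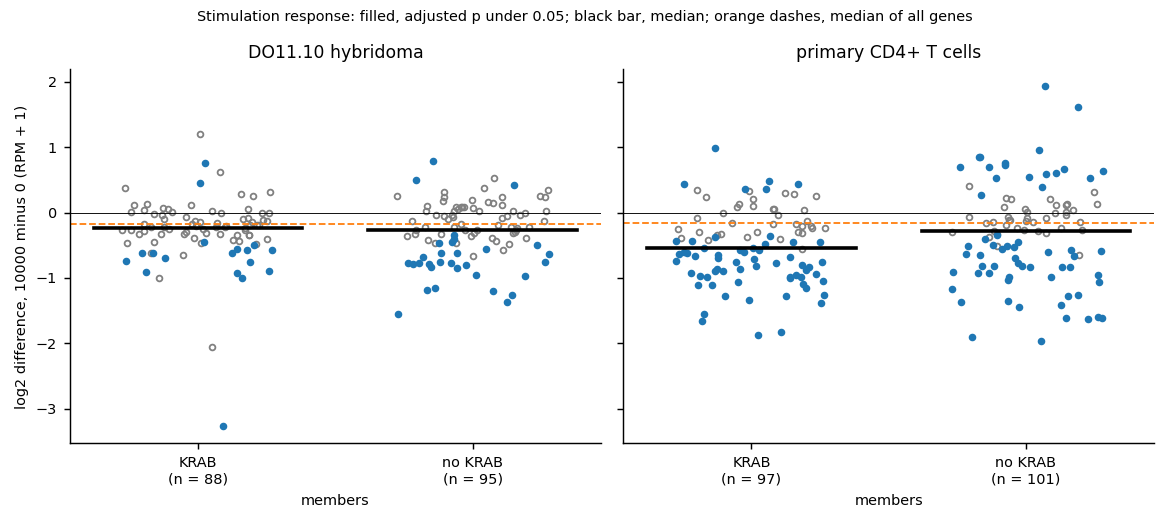
Log2 difference (RPM + 1) between 10000 and 0 without PD-1 engagement for each member, by whether a KRAB A box was matched, in the hybridoma (left) and CD4+ cells (right). Filled points passed an adjusted p of 0.05 in limma, black bars are the medians, and the orange dashes are the median of all genes. In CD4+ cells the KRAB median of -0.54 lies below the median of members without KRAB of -0.27 and of all genes of -0.15.

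By dose, CD4+ members moved from 100 ng/ml upward. At 10 ng/ml no member passed in either direction, nor did any gene (0%). There limma gave 11 lower members at an unadjusted p under 0.05, a count without a share over all genes beside it. At 100 ng/ml 10 members were higher and 11 lower (19.2% and 7.21% of all genes), and at 1000 ng/ml 28 were higher and 72 lower (31.1% and 29.9%). With PD-1 engaged, 40 were higher and 62 lower at 10000 ng/ml (38.4% and 26.4%). Leaving out the dose 0 library of number 1 brought the higher members at 10000 ng/ml without engagement to 15 (23.8% of all genes).

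The CD4+ members that fell furthest came from both groups. The KRAB gene Zfp386 (chr12:117285943-117286000, plus strand, mm9) was at 29.5 and 31.3 RPM at dose 0 and at 7.34, 8.02 and 7.36 RPM at 10000 ng/ml, which is -1.87 ± 0.14 (adjusted p = 1.06e-09). It had fallen by 0.63 at 100 ng/ml (adjusted p = 0.00636) and by 1.75 at 1000 ng/ml (adjusted p = 1.65e-08). The level came down with each step of dose from 100 ng/ml. Zfp467, known for its part in fat cell differentiation and without KRAB, was at 24.4 and 26.3 RPM at dose 0 and at 6.66, 5.70 and 5.71 RPM at 10000 ng/ml, which is -1.91 ± 0.11 (adjusted p = 2.13e-11). Zfp217 was at 18.9 and 20.9 RPM at dose 0 and at 4.78, 6.80 and 6.01 RPM at 10000 ng/ml (-1.62 ± 0.17, adjusted p = 6.17e-08), as in the hybridoma. Zfp395 (-1.96 ± 0.23), Zfp710 (-1.63 ± 0.17), Zfp260 (-1.61 ± 0.20) and the KRAB genes Zfp945 (-1.83 ± 0.20) and Zfp949 (-1.66 ± 0.20) fell in the same range.

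Zfp593, whose product acts late in the assembly of the large ribosomal subunit, rose the most. It was at 38.6 and 36.0 RPM at dose 0 and at 143, 148 and 145 RPM at 10000 ng/ml, a log2 difference of 1.93 ± 0.09 (adjusted p = 1.71e-12). The rise was 0.83 at 100 ng/ml (adjusted p = 1.09e-05) and 1.79 at 1000 ng/ml (adjusted p = 3.2e-11). The groups did not overlap, and the level at 1000 ng/ml was already near that at the top dose. Zfp296, a gene of germ and stem cells, was at 0.715 and 1.26 RPM at dose 0 and at 4.78, 5.39 and 4.96 RPM at 10000 ng/ml (1.62 ± 0.32, adjusted p = 0.000165). Zfp566, a KRAB gene, rose by 0.99 ± 0.19, Zfp295 by 0.95 ± 0.10 and Zfp330 by 0.85 ± 0.10. Zfp202 (0.85 ± 0.20), Zfp828 (0.76 ± 0.13) and Zfp318 (0.73 ± 0.23), known for its part in IgD expression of B cells, rose as well. The Zfp318 call was lost without the dose 0 library of number 1 (adjusted p = 0.0617).

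**Figure D2:**
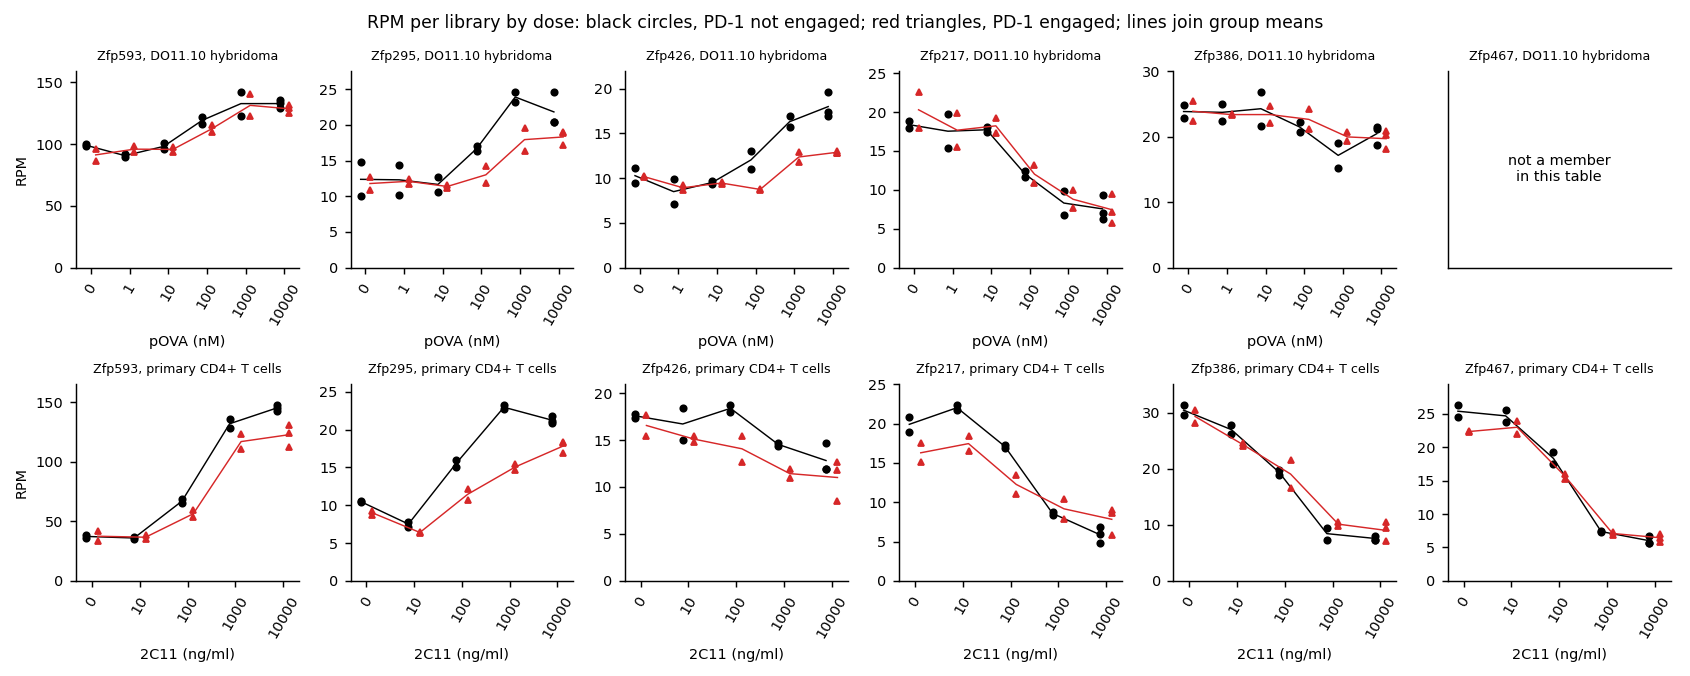
RPM of 6 members in each library against dose, for the hybridoma (top, pOVA in nM) and CD4+ cells (bottom, 2C11 in ng/ml). Black circles are libraries without and red triangles with PD-1 engagement, and lines join group means. Zfp593 and Zfp295 climb with dose in both systems, Zfp217 falls in both, Zfp426 climbs in the hybridoma and falls in CD4+ cells, and Zfp386 and Zfp467 fall in CD4+ cells.

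Neighbouring members could be read as runs, in which each member lies within 200 kb of the next. There were 11 runs of 4 or more members, holding 70 of the 210. The runs were taken by position, and the ones described here were chosen after their values were seen. Of all genes tested, 40.1% were lower in CD4+ cells and 20.8% in the hybridoma. On chromosome 13, 11 KRAB members lie between 67162075 and 67914757 (mm9), and 8 of the 11 were lower in CD4+ cells (median -0.54) while 1 of the 9 measured in the hybridoma was (median -0.21). This run includes Zfp738, Zfp429 and Zfp456, of which the first was at 11 and 12.2 RPM at dose 0 and at 5.63, 5.66 and 3.60 RPM at 10000 ng/ml (-1.1 ± 0.23, adjusted p = 0.000312). On chromosome 17 between 21520693 and 21844692, 4 of 5 KRAB members were lower in CD4+ cells (median -0.88) and 1 of 5 in the hybridoma. In that run Zfp52, the most abundant KRAB member of CD4+ cells, did not pass (0.06, adjusted p = 0.595), while Zfp677 fell from 13.5 and 13.3 RPM to 4.61, 4.25 and 3.0 RPM (-1.56 ± 0.18, adjusted p = 3.05e-07). On chromosome 7 between 4866792 and 5003213, 6 members without KRAB were all lower in CD4+ cells (median -0.88), and 0 of the 4 measured in the hybridoma were. Other runs did not move together: of 11 members on chromosome 7 between 30553590 and 30954781, 5 were lower and 1 higher in CD4+ cells and none passed in the hybridoma. Neighbours of this family are often near-identical copies. The sources used here do not say how tags that map to several places were counted, so tags may be shared between such copies.

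**Figure D3:**
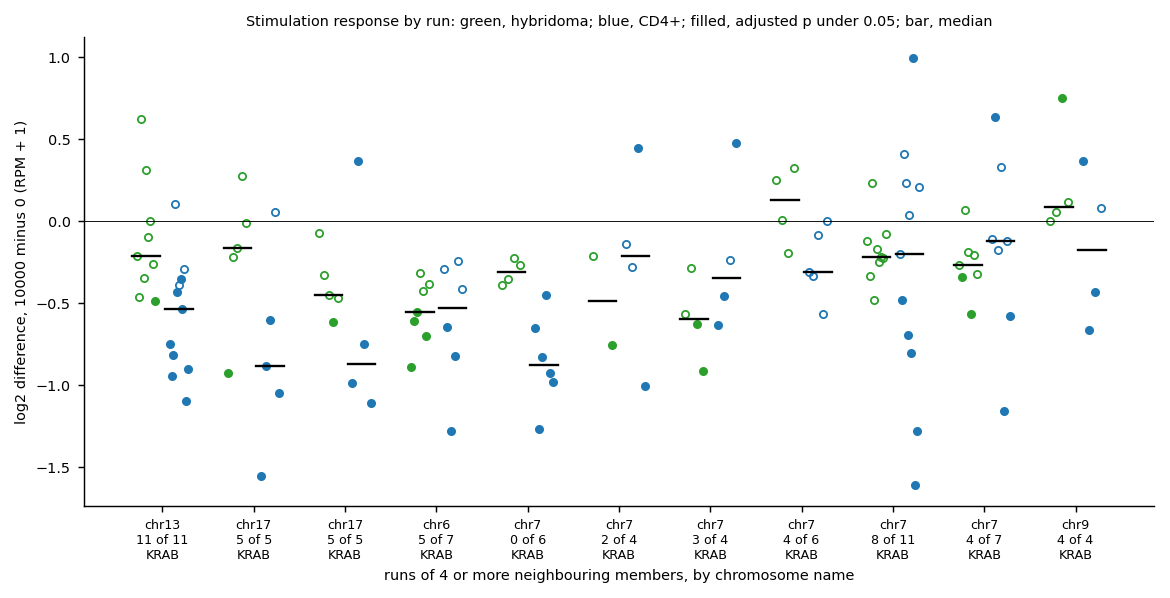
Log2 difference (RPM + 1) between 10000 and 0 for the members of each of the 11 runs of neighbours, with green for the hybridoma and blue for CD4+ cells. Filled points passed an adjusted p of 0.05 in limma and bars are medians. The CD4+ points of the first run, 11 KRAB genes on chromosome 13, have a median of -0.54, and the 6 genes without KRAB on chromosome 7 one of -0.88.

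The members with other known roles were read by list. Of all genes tested, 8.09% rose and 20.8% fell in the hybridoma, and 27.5% rose and 40.1% fell in CD4+ cells. The lists are short, and none was tested against these shares. Among activators and sequence-specific regulators 0 of 11 were higher and 5 lower in the hybridoma, and 0 of 11 higher and 4 lower in CD4+ cells. Zfp148, a factor of GC-rich promoters, fell in both (-0.68 and -0.69), Zfp292 fell in both (-0.63 and -1.44), and Zfp281, which acts in stem cells, fell in CD4+ cells (-0.98) and had 0.03 in the hybridoma. Among partners of chromatin and RNA polymerase II complexes 3 of 9 were lower in the hybridoma, and 2 of 8 were higher and 3 lower in CD4+ cells. Zfp592 and Zfp687, which bind the same chromatin reader complex, fell in both systems (-0.62 and -0.96 in the hybridoma, -1.06 and -0.96 in CD4+ cells). Of the 6 RNA and ribosome members Zfp593 rose in both systems and Zfp598, a ubiquitin ligase of collided ribosomes, rose in CD4+ cells (0.61), and none fell. Of 6 retroelement repressors, Zfp738 fell in both, Zfp429 fell (-0.36) and Zfp932 rose (0.44) in CD4+ cells, and Zfp809, which silences murine leukaemia virus, had -0.01 and -0.03 with no call.

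The corepressors through which KRAB proteins act were measured beside them, and 33 of 34 were tested. In the hybridoma 1 rose and 10 fell (median -0.28), where 8.09% of all genes rose and 20.8% fell. In CD4+ cells 9 rose and 10 fell (median -0.16), where 27.5% of all genes rose and 40.1% fell. The list was not tested against these shares. Trim28, the protein that KRAB domains bind, went from 115 ± 28.0 (SD, n = 2) to 63.7 ± 14.6 RPM (SD, n = 3) in the hybridoma, with a log2 difference of -0.85 (adjusted p = 0.00931). In CD4+ cells it went from 66.3 ± 3.26 (SD, n = 2) to 86.7 ± 5.65 RPM (SD, n = 3), with 0.38 (adjusted p = 0.00281). The 2 responses differed by 1.23 (adjusted p = 0.000339), and with quantile normalization by 1.19 (adjusted p = 1.29e-05). Suv39h2, a histone H3 lysine 9 methyltransferase, also fell in the hybridoma (-0.41) and rose in CD4+ cells (1.21), with a difference of 1.61 (adjusted p = 1.4e-05), although its hybridoma value was no call with quantile normalization (adjusted p = 0.24). Atf7ip, a partner of SETDB1, fell in both (-0.89 and -1.78), and Sumo2 rose in both (0.73 and 0.46).

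The responses of the 172 shared members were then compared between the systems. The difference of the 2 responses, CD4+ minus hybridoma, was called higher for 16 members and lower for 27, where 22.3% and 17.6% of the 9347 genes tested were. Its median was -0.17 for the members and 0.03 for all genes. Without the hybridoma dose 0 library of number 2 the counts were 9 and 33, and without that of number 1 the lower count was 17. Without the CD4+ dose 0 library of number 1 the higher count was 10. The shares of all genes under these removals are not given here. Among the shared members, 29 were lower in both systems, which is 69.0% of the 42 lower in the hybridoma and 34.1% of the 85 lower in CD4+ cells. Higher in both were Zfp295, Zfp330 and Zfp593, which are 60% of the 5 higher in the hybridoma and 15.0% of the 20 higher in CD4+ cells. Since 85 of the 172 shared members were lower in CD4+ cells, much of the lower overlap would arise without a link. Shares over all genes are not given for these overlaps, so they are not shown to set the members apart. The antigen, dose unit and cells differ between the systems, so the doses are not matched.

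A set of 7 members passed in opposite directions. The share of all genes with opposite calls is not given here, so this number is not shown to differ from genes at large. Zfp426 and Zfp655 were higher in the hybridoma and lower in CD4+ cells, and Zfp397, Zfp446, Zfp609, Zfp692 and Zfp771 were lower in the hybridoma and higher in CD4+ cells. Zfp426 was at 17.4 and 17.8 RPM at dose 0 in CD4+ cells and at 11.9, 14.6 and 11.9 RPM at 10000 ng/ml (-0.43 ± 0.15, adjusted p = 0.014), against its rise of 0.75 in the hybridoma. Zfp655 was at 49.2 and 45.0 RPM and at 30.5, 32.8 and 32.7 RPM (-0.54 ± 0.10, adjusted p = 8.17e-05), against 0.45. Zfp397 was at 59.4 and 56.7 RPM at dose 0 in the hybridoma and at 45.5, 41.4 and 39.8 RPM at the top dose (-0.45 ± 0.12, adjusted p = 0.00728), and in CD4+ cells at 16.9 and 16.8 RPM and at 23.6, 26.8 and 23.6 RPM (0.53 ± 0.13, adjusted p = 0.00132). In all 3 genes the libraries of the 2 groups did not overlap in either system, as in every member called by stimulation. Zfp609, a partner of the cohesin loader and Integrator, had -0.76 and 0.54, Zfp446 -0.92 and 0.48, Zfp692 -0.62 and 0.66, and Zfp771 -0.34 and 0.63. Several of the calls behind these members were lost under alternatives. Those of Zfp609 in both systems and of Zfp692 in the hybridoma were lost when single libraries were left out. The CD4+ call of Zfp446 was lost without the dose 0 library of number 1 (adjusted p = 0.13) and without the library of number 2 at 10000 ng/ml (adjusted p = 0.0625). The CD4+ call of Zfp426 was lost without either dose 0 library (adjusted p = 0.0526 and 0.0724), with DESeq2 (adjusted p = 0.121) and with quantile normalization (-0.23, adjusted p = 0.106). The hybridoma call of Zfp771 (adjusted p = 0.0498) was lost with quantile normalization (-0.15, adjusted p = 0.218), edgeR (adjusted p = 0.116), DESeq2 (adjusted p = 0.223) and the replicate block (adjusted p = 0.107), and without either dose 0 library (adjusted p = 0.0538 and 0.305). Other members differed by size: Zfp386 by -1.66, Zfp593 by 1.51, Zfp821 by 1.58 and Zfp281 by -1.01.

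**Figure D4:**
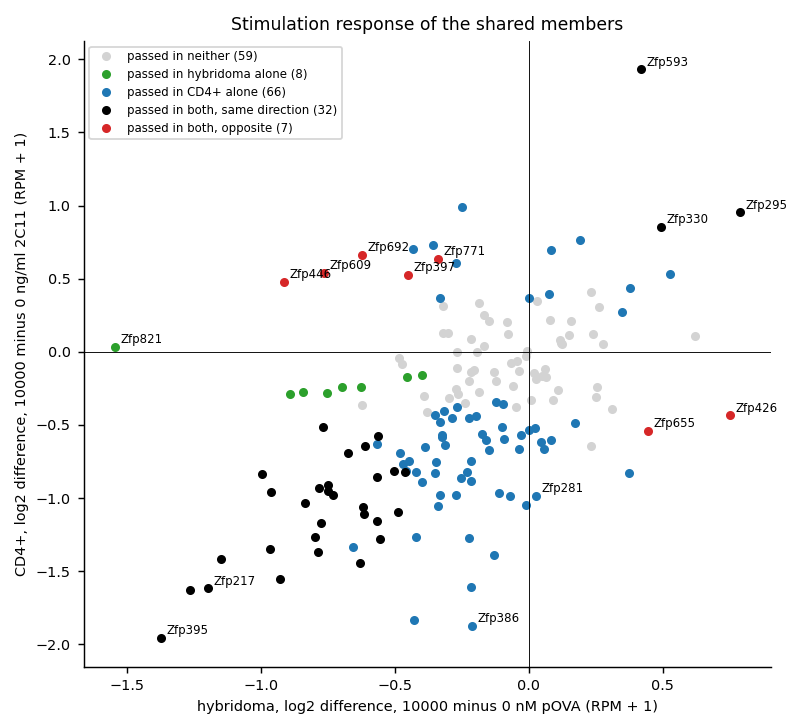
Log2 difference (RPM + 1) between 10000 and 0 in the hybridoma (horizontal axis) against CD4+ cells (vertical axis) for the 172 shared members, coloured by whether an adjusted p under 0.05 was reached in neither, 1 or both systems. The 29 members lower in both lie at the lower left, Zfp295, Zfp330 and Zfp593 at the upper right, and the 7 with opposite calls are red.

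PD-1 engagement gave few calls among the members in the hybridoma. Averaged over the 5 stimulated doses, 0 of 184 members were higher and 0 lower, where 0.0594% and 0.872% of all genes were. At an unadjusted p under 0.05 in limma 1 was higher and 2 lower, without a share over all genes. At the adjusted threshold DESeq2 and edgeR also called 0 members in both directions. Of all genes they called 0.188% and 0.0693% higher and 1.23% and 0.793% lower. The median was -0.01 for the members and 0.00 for all genes. Engaged and unengaged hybridoma libraries of the same replicate number varied together, although the labels do not say what the numbers mean. With the number as a block 0 members were higher and 2 lower, where 1.99% and 4.52% of all genes were. The 2 were Zfp295 (-0.20 ± 0.06, adjusted p = 0.0468) and Zfp426 (-0.23 ± 0.05, adjusted p = 0.00922), which also rose the most with stimulation. Without the block their adjusted p was 0.485 and 0.0759. At 10000 nM Zfp426 was at 16.9, 17.4 and 19.7 RPM unengaged and at 12.8, 13 and 12.8 RPM engaged, and at 1 nM its blocked difference was 0.08. By dose, where no member passed without the block, the blocked fit called 3 members higher at 1000 nM and 0 lower (5.32% and 2.02% of all genes), namely Zfp609 (0.50 ± 0.09, adjusted p = 0.00739), Zfp687 (0.45 ± 0.11, adjusted p = 0.0258) and Zfp954 (0.47 ± 0.12, adjusted p = 0.0333). At 10000 nM it called 1 higher and 2 lower (0.921% and 1.6%), namely Zfp319 (0.51 ± 0.12, adjusted p = 0.037), Zfp703 (-0.42 ± 0.10, adjusted p = 0.0476) and Zfp426 (-0.45 ± 0.09, adjusted p = 0.0157). At 1, 10 and 100 nM it called no member, where 0.0198%, 0.00991% and 0.456% of all genes were higher and 0.0198%, 0.139% and 3.76% lower. The stimulation and the PD-1 comparisons share the unengaged stimulated libraries.

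In CD4+ cells most members that passed were lower with PD-1 engaged, as was the case for genes at large. Averaged over the 4 stimulated doses, 2 of 198 members were higher (4.48% of all genes) and 63 lower (31.8%, against 41.2% of all genes). The medians were -0.16 for the members and -0.15 for all genes. With quantile normalization the median of all genes was 0.00 and that of the members -0.03, and 12 members were higher and 19 lower (14.1% and 12.7% of all genes). Of 101 members without KRAB 0 were higher and 46 lower (median -0.21), and of 97 KRAB members 2 were higher and 17 lower (median -0.09). The KRAB members were also less abundant, with a median of 7.91 against 13.7 RPM. The 2 groups are not matched by level here, and the difference between them was not tested. For the KRAB members the direction turned with the scaling: quantile normalization gave 8 higher and 4 lower (median 0.03), edgeR 12 and 4 (median 0.06) and DESeq2 5 and 2 (median 0.06). For the members without KRAB it did not, with 4 higher and 15 lower, 3 and 16, and 2 and 16. B cell markers moved with engagement: 4 of the 6 tested were higher and 0 lower, with a median of 0.41, and with them as a covariate 0 members were higher and 86 lower (43.4%), where 3.4% and 46.4% of all genes were. Their part in the result was not tested. The tag counts recovered from the RPM gave 15 higher and 20 lower members with edgeR (14.7% and 15.2% of all genes) and 7 higher and 18 lower with DESeq2 (13% and 12.5% of all genes), both of which rescale libraries.

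Among the members lower with PD-1 and of one sign at every stimulated dose were Zfp777 (-0.48 ± 0.11, adjusted p = 0.00203), Zfp219 (-0.42 ± 0.12, adjusted p = 0.00861), Zfp407 (-0.39 ± 0.06, adjusted p = 0.000125) and Zfp335 (-0.37 ± 0.07, adjusted p = 0.000294). Zfp335 is needed for the maturation of T cells. The Zfp219 call was lost with edgeR (adjusted p = 0.094) and DESeq2 (adjusted p = 0.143). At 100 ng/ml Zfp407 was at 24.1 and 26.2 RPM unengaged and at 13.1 and 14.8 RPM engaged, and Zfp335 at 31.2 and 31.9 against 20.6 and 21.5 RPM. Neither pair of groups overlapped. Zfp295 was lower by engagement in CD4+ cells as well (-0.36 ± 0.05, adjusted p = 5.66e-05, and -0.20 with quantile normalization, adjusted p = 0.0149). Zfp426 was too (-0.26 ± 0.08, adjusted p = 0.011), a call that quantile normalization ended (-0.10, adjusted p = 0.284). The 2 higher members were the KRAB genes Zfp949 (0.30 ± 0.11, adjusted p = 0.0283) and Zfp938 (0.26 ± 0.09, adjusted p = 0.0239). With the B cell covariate Zfp949 had the same difference without a call (0.30, adjusted p = 0.0855) and Zfp938 a smaller one (0.09, adjusted p = 0.477). Without the engaged library of number 2 at 100 ng/ml no member was higher, where 4.24% of all genes were.

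The PD-1 difference changed with dose in CD4+ cells, in the members and in genes at large. At dose 0 it gave 0 higher and 17 lower members (0.763% and 13.6% of all genes), at 10 ng/ml 0 and 1 (0.0489% and 0.705%), at 100 ng/ml 0 and 60 (1.91% and 37.3%) and at 1000 ng/ml 1 and 29 (3.3% and 19.4%). At 10000 ng/ml the direction turned in both, with 11 members higher (5.56%) and 0 lower, against 5.89% and 2.58% of all genes. From 100 to 10000 ng/ml the median moved from -0.32 to 0.04 in the members and from -0.29 to 0.02 in all genes. With quantile normalization 9 members were higher and 1 lower at 10000 ng/ml (4.71% and 3.52% of all genes). The difference at 10000 ng/ml was above that at 100 ng/ml for 36 members (18.2%) and below it for 0, against 26% and 1.03% of all genes. It was above that at dose 0 for 28 members (14.1%) and below it for 0, against 14.9% and 0.763%. These 2 comparisons were chosen after seeing the data. The PD-1 difference averaged over the stimulated doses, set against that at dose 0, gave 0 members in either direction in limma (0% of all genes higher and 0.0196% lower). At an unadjusted p under 0.05 in limma 14 members were higher and 1 lower. The shares of all genes at that unadjusted p are not given here.

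Members higher at 10000 ng/ml with PD-1 engaged included Zfp106, Zfp292, Zfp592 and Zfp644, which pairs with a histone methyltransferase complex. Zfp106 was at 38.0, 53.5 and 46.4 RPM unengaged and at 63.1, 119 and 118 RPM engaged (1.06 ± 0.21, adjusted p = 0.00537), and Zfp292 at 24.2, 22.8 and 15.9 against 32.1, 35.4 and 37.5 RPM (0.73 ± 0.15, adjusted p = 0.00564). The groups did not overlap, and the engaged library of number 1 was the lowest of its group in both genes. Without that library 18 members were higher, where 7.52% of all genes were. Without the engaged library of number 2 or 3, or the unengaged library of number 1 or 3, 5 were (1.83% to 2.75% of all genes). Genes at large thus moved the same way as the members.

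**Figure D5:**
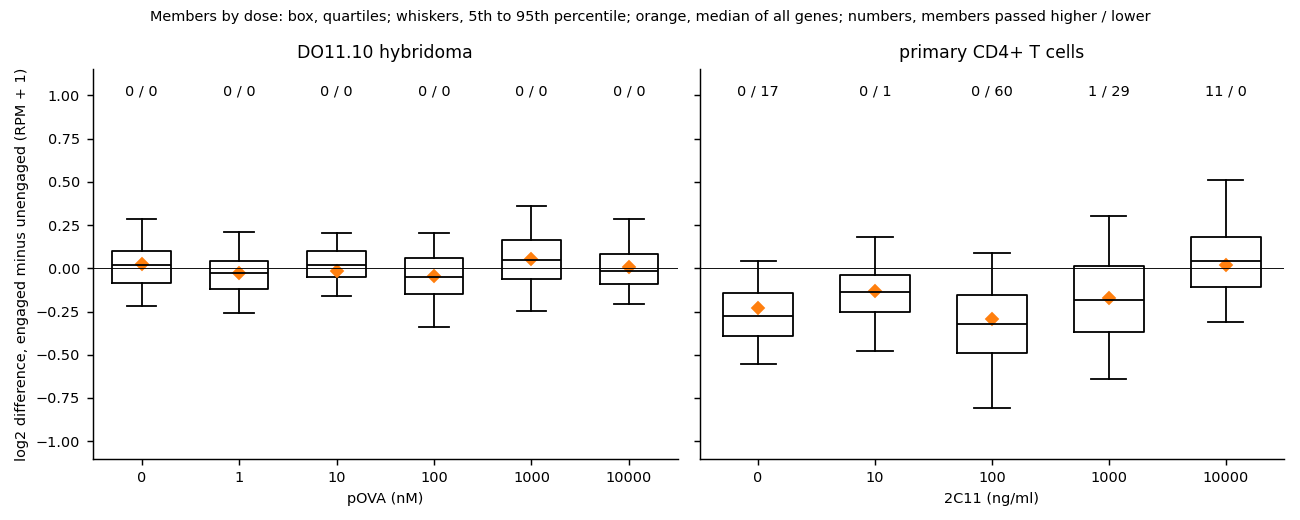
Log2 difference (RPM + 1) between engaged and unengaged libraries over the members at each dose, for the hybridoma (left) and CD4+ cells (right). Boxes are quartiles, whiskers the 5th to 95th percentile, orange diamonds the median of all genes, and the printed pairs count members called higher and lower. The CD4+ boxes lie below 0 up to 100 ng/ml, where 60 members are lower, the median is still below 0 at 1000 ng/ml, and 11 higher members stand at 10000 ng/ml. The printed counts are without the replicate block.

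Some members with several start site clusters had a different largest cluster at dose 0 and at 10000 without engagement. In CD4+ cells these were Zfp219, Zfp467, Zfp523, Zfp644 and Zfp787, and in the hybridoma Zfp161, Zfp219 and Zfp362. Several had nearly equal top clusters at dose 0, so a small shift changes their order. The top clusters were at 15.19 and 15.14 RPM in Zfp644 and at 11.72 and 11.67 RPM in Zfp787. In the hybridoma they were at 5.56 and 5.2 RPM in Zfp161 and at 6.88 and 6.21 RPM in Zfp362. In Zfp219 in CD4+ cells the cluster at chr14:52634226-52634267 (minus strand, mm9) held 67.3% of the tags of the gene's clusters at dose 0 and 24.9% at 10000 ng/ml, while that at chr14:52639721-52639736 went from 32.7% to 75.1%. These shares rest on low levels, 3.29 and 1.06 RPM in the former and 1.6 and 3.19 RPM in the latter. In Zfp467 the cluster at chr6:48395765-48395799 held 46.9% at dose 0, which was 11.9 RPM, and 24.3% at 10000 ng/ml, which was 1.46 RPM. The cluster at chr6:48395442-48395497 held 41.4% and 54.7%. The mean of each of the 3 clusters of Zfp467 was lower at 10000 ng/ml, and the upstream cluster had the largest drop in RPM. The cluster shares are from group means and were not tested, and how many of all genes change their largest cluster is not given here.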

How the data were processed

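Capped 5′ ends of total RNA (CAGE) were measured in 48 libraries. The build named is mm9 and the tools are HISAT2 2.0.5 and BWA 0.7.12, per the submitters' processing notes. The sources used here do not name a cluster caller. The deposited tables give RPM per tag cluster. The positive values checked, which left out the highest of each library, all came out as whole tags within 0.1 tag. Tag counts were therefore recovered for edgeR and DESeq2. Clusters were summed per symbol, and clusters without a single symbol were left out.

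Differences in log2(RPM + 1) were tested with limma 3.58.1 (R 4.3.3) on the group means of each table, over genes of at least 1 RPM in 2 or more libraries, with Benjamini-Hochberg adjustment over all of them and a threshold of 0.05. The ± values beside log2 differences are standard errors. In each table the stimulation comparison at the top dose was tested on simulated data. There 100 genes were changed by 1 on the log2 scale and 100 by 0.5. Of those changed by 1, 78% were recovered in the hybridoma (10094 genes) and 87% in CD4+ cells (10217 genes). Of those changed by 0.5 only 15% and 26% were. The other comparisons were not simulated. Far more genes were called in the data than were changed here, and the adjustment depends on that number. These shares are thus not the sensitivity of the reported comparisons. edgeR 4.0.16, DESeq2 1.42.0, other scalings, filters and left-out libraries were alternatives.

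The members and gene lists were chosen with earlier results of these data known. Named were the 8 called members with the largest difference in each direction whose libraries did not overlap (stimulation) or kept 1 sign at each stimulated dose (PD-1), the 6 most abundant, those called in opposite directions, the listed roles, and those whose largest cluster changed. Others were picked after their values were seen: Zfp655, Zfp677, Zfp52, the runs and the hybridoma members called per dose with the block. The labels do not say whether replicate numbers pair libraries. Deviations of same-numbered engaged and unengaged hybridoma libraries correlated at 0.256 to 0.759 over genes. With 2 libraries per group both numbers give the same value. The highest was at dose 0, where both libraries of number 2 had high B cell markers. KRAB was called where a protein, translated from GENCODE M21, matched at least 9 of 14 conserved positions of the A box.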

Additional observations from a re-analysis of the deposited data

Results flagged for a closer look

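These 7 members passed in opposite directions in the 2 systems. The difference between the responses, CD4+ minus hybridoma, also passed in limma for each (Benjamini-Hochberg adjustment over 9347 genes). They were picked by their opposite calls in the same libraries, so this pass largely follows from the choice and is no separate support. The log2 difference was -1.19 for Zfp426 (adjusted p = 6.92e-06) and -0.99 for Zfp655 (adjusted p = 9.13e-07). It was 1.39 for Zfp446 (adjusted p = 4.8e-05), 1.3 for Zfp609 (adjusted p = 0.00145) and 1.28 for Zfp692 (adjusted p = 0.000535). For Zfp397 it was 0.98 (adjusted p = 2.57e-05) and for Zfp771 0.97 (adjusted p = 0.000755). In the hybridoma Zfp692 was at 4.91 and 7.20 RPM at dose 0 and at 3.46, 3.94 and 3.21 RPM at 10000 nM, and in CD4+ cells at 5.29 and 6.31 RPM and at 10.2, 10.8 and 8.41 RPM. Its hybridoma call was lost with quantile normalization (adjusted p = 0.132), DESeq2 (adjusted p = 0.0678) and the B cell covariate (adjusted p = 0.0888).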

How the results depend on the processing

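Of the values of single named genes under alternatives, 969 kept their direction and side of the threshold, 51 lost the call, 4 gained one and none reversed. Most of these genes were named for their calls and large differences, so many kept values follow from the choice. The alternatives refit the same libraries, many with 1 left out, and are no independent checks. Quantile normalization gave 20 higher and 26 lower members for hybridoma stimulation (12.9% and 14.2% of all genes). For PD-1 in CD4+ cells it gave 12 and 19 (14.1% and 12.7% of all genes), and at 10000 ng/ml 1 lower (3.52%). For the difference between systems it gave 41 lower, a count whose share over all genes is not given here. For hybridoma stimulation edgeR called 11 higher, DESeq2 12 and the B cell covariate 8 (13.4%, 14.7% and 8.72% of all genes). For PD-1 in CD4+ cells edgeR called 15 higher and 20 lower (14.7% and 15.2% of all genes) and DESeq2 7 and 18 (13% and 12.5%). There the B cell covariate gave 0 higher (3.4%). The covariate gave 1 lower member for PD-1 in the hybridoma (1.29% of all genes). Adding the engaged dose 0 libraries to the controls, chosen after seeing the data, gave 39 higher for CD4+ stimulation (33.5% of all genes).

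Leaving out 1 library at a time gave 4 to 7 higher and 19 to 47 lower for hybridoma stimulation (5.92% to 7.53% and 9.75% to 23.7% of all genes). For hybridoma PD-1 it gave 0 higher and 0 to 1 lower (0.0297% to 0.0694% and 0.634% to 1.02%). The 1 came without the unengaged 1 nM library of number 1. It gave 15 to 22 higher and 80 to 96 lower for CD4+ stimulation (23.8% to 27.2% and 33.6% to 39.6% of all genes). For CD4+ PD-1 it gave 0 to 3 higher and 47 to 74 lower (3.57% to 4.93% and 33.5% to 43.8%). For PD-1 at 10000 ng/ml it gave 5 to 18 higher and 0 to 1 lower (1.83% to 7.52% and 0.724% to 4.53% of all genes). For the difference between systems it gave 9 to 17 higher and 17 to 33 lower, with no shares over all genes given here.

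With the replicate block 2 hybridoma members were lower with PD-1 engaged, Zfp295 and Zfp426. The block gave 5 higher and 39 lower for hybridoma stimulation (8.64% and 17% of all genes). There it ended the calls of Zfp692 (adjusted p = 0.0797) and Zfp771 (adjusted p = 0.107). For the difference between systems it gave 15 and 32, with no shares over all genes given here. In CD4+ cells the correlations of same-numbered libraries were 0.0129 to 0.255, the highest of them close to the lowest hybridoma value of 0.256. Whether the numbers pair libraries in either system is not known. In CD4+ cells the block gave 25 and 95 for stimulation (29% and 39.5% of all genes) and 3 and 72 for PD-1 (4.84% and 43.3%). Adding clusters that carry several symbols was not run, because those clusters list no names. The self-test recovered few changes of 0.5, but it covered only the stimulation comparison and changed far fewer genes than were called. Small differences may be missed at these group sizes, and how many are missed in the reported comparisons was not tested.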
